A study of Mus musculus with 12 samples.

Results

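The genes described here encode G protein subunits and their regulators in the mouse striatum, measured in 12 total RNA libraries. They were chosen by name, as the rows whose gene name in the deposited FPKM table is Gnal, Gng7, Gnb5, Gnao1, Rgs2, Rgs4, Rgs8, Rgs9, Rgs14 or Rasgrp2, and all 10 were found among 51912 genes. The names were chosen with earlier results of these data known. The libraries fall into 4 groups of 3. R6/2-T mice carried the R6/2 transgene, exon 1 of human huntingtin with an expanded CAG repeat, and received an adeno-associated virus with a short hairpin RNA (shRNA) against TRAX, the protein encoded by Tsnax. R6/2-C mice carried the transgene and received the virus with a control shRNA. WT-T mice were wild type and received the TRAX shRNA, and WT-C mice were wild type and received the control. All groups share a B6CBA background (strain label B6CBAFI/J), a bilateral intrastriatal virus injection at an age of 5 weeks and sampling at 10.5 weeks, so no group is free of virus. The sources used here name neither the viral promoter nor the cells it reaches. Nothing in the labels ties a library to its own animal, and the p-values therefore reflect differences among libraries, which may be technical.

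A heterotrimeric G protein consists of an alpha subunit that binds GTP and a paired beta and gamma subunit, and it carries the signal of a receptor to enzymes such as adenylyl cyclase. Regulators of G protein signalling (RGS proteins) speed the hydrolysis of GTP on alpha subunits and so shorten the signal. In medium spiny neurons, the main striatal cell type, the alpha subunit encoded by Gnal links dopamine and adenosine receptors to the cyclase encoded by Adcy5, with the gamma subunit encoded by Gng7. Rgs9 has a splice form that is enriched in the striatum, and its protein is bound to the atypical beta subunit encoded by Gnb5. Rasgrp2 encodes an exchange factor that loads the small G protein Rap with GTP when calcium and diacylglycerol rise.

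StringTie counts, the deposited estimate used in the tests, summed to between 131783370 and 229332386 per library. Libraries of a group correlated at r of 0.982 to 0.995 in log scaled counts across genes. With the shRNA, Tsnax stood at 23.8% of the R6/2-C level in R6/2-T mice and at 20.0% of the WT-C level in WT-T mice, on the side each label gives. What remained was not equal between genotypes. Tsnax in R6/2-T was at 140% of its WT-T level (log2 0.49, edgeR adjusted p = 0.00757). Under the control it was at 118% of WT-C in R6/2-C (edgeR adjusted p = 0.175). Markers of the tissue were present in every library, with none at 0. The 12 medium spiny neuron markers summed to 1153 to 1175 FPKM (fragments per length of transcript and per depth, a level comparable between genes) in R6/2-T, 1485 to 1701 in R6/2-C, 2426 to 2912 in WT-T and 2477 to 2899 in WT-C. The 7 pan-neuronal markers summed to 1224 to 1239 FPKM in R6/2-T, 1216 to 1310 in R6/2-C, 1102 to 1378 in WT-T and 1193 to 1266 in WT-C, and those ranges overlapped. Oligodendrocyte markers summed to 1362 to 1443 FPKM in R6/2-T, 1411 to 1839 in R6/2-C, 1892 to 2685 in WT-T and 2044 to 2957 in WT-C, and astrocyte markers to 359.5 to 401 FPKM in R6/2-T, 406 to 574 in R6/2-C, 445 to 869.6 in WT-T and 619 to 882 in WT-C. The 6 choroid plexus markers summed to 650 to 1190 FPKM in R6/2-T, 79.0 to 1229 in R6/2-C, 93.8 to 804 in WT-T and 89.9 to 222 in WT-C. Libraries R6/2-C 2 and WT-T 1 stood apart from their groups in them, so several results are also given without one of them.

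The comparisons of R6/2-C with WT-C and of R6/2-T with WT-T ask how R6/2 striatum differed from wild type striatum under the control and under the TRAX shRNA. In R6/2-C, the edgeR quasi-likelihood test called 5 of the 10 genes at a Benjamini-Hochberg adjusted p under 0.05, all lower: Rgs9, Rgs4, Rgs14, Rgs2 and Rasgrp2. Of all genes tested, 9.09% were called in this comparison, 4.22% as lower. In R6/2-T, 6 of the 10 were called, all lower, with Rgs8 added, against a background of 22.6% called, 11.1% as lower. The edgeR fit of all libraries called none of the 4 G protein subunit genes in either comparison, nor did DESeq2 in R6/2-C (14.9% of all genes called). Gng7 in R6/2-T was called by DESeq2 (adjusted p = 0.0485), which called 28.6% of all genes there, and in 7 of the 21 other settings in all. Without R6/2-C 2, edgeR called 5 of the 10 genes in R6/2-C and 7 in R6/2-T, and without WT-T 1 it called 6 in each. Of the 24273 genes tested without R6/2-C 2, 2256 were called in R6/2-C and 5473 in R6/2-T. Of the 24021 tested without WT-T 1, 2733 were called in R6/2-C and 4507 in R6/2-T. The median log2 change of the 10 genes was −0.48 in R6/2-C and −0.80 in R6/2-T, against −0.02 and −0.05 over all genes tested in those comparisons. Because the 10 genes were chosen with earlier results of these data known, their difference from all genes is no independent test. FPKM ranges lay wholly below the matching wild type range for 7 of the 10 genes in R6/2-C (12.0% of all genes tested) and for 7 in R6/2-T (19.3%). In tissue RNA, fewer cells of a type and less RNA per cell cannot be told apart, and several marker sums moved with these changes. The 6 endothelial and mural markers summed to 29.9 to 39.4 FPKM in R6/2-T, 34.0 to 39.3 in R6/2-C, 44.4 to 51.6 in WT-T and 51.8 to 55.7 in WT-C, below wild type without overlap in both comparisons. Of the 7 pan-neuronal markers, edgeR called 2 lower and 1 higher in R6/2-T, and none lower and 1 higher in R6/2-C. In R6/2-T and R6/2-C, edgeR called lower 7 and 7 of the 12 medium spiny neuron markers, 3 and 4 of the 6 endothelial and mural, 4 and 2 of the 6 oligodendrocyte, 3 and 3 of the 6 astrocyte and 4 and 0 of the 6 microglial ones, and the part of these cell types in the changes of the 10 genes was not tested.

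**Figure D1:**
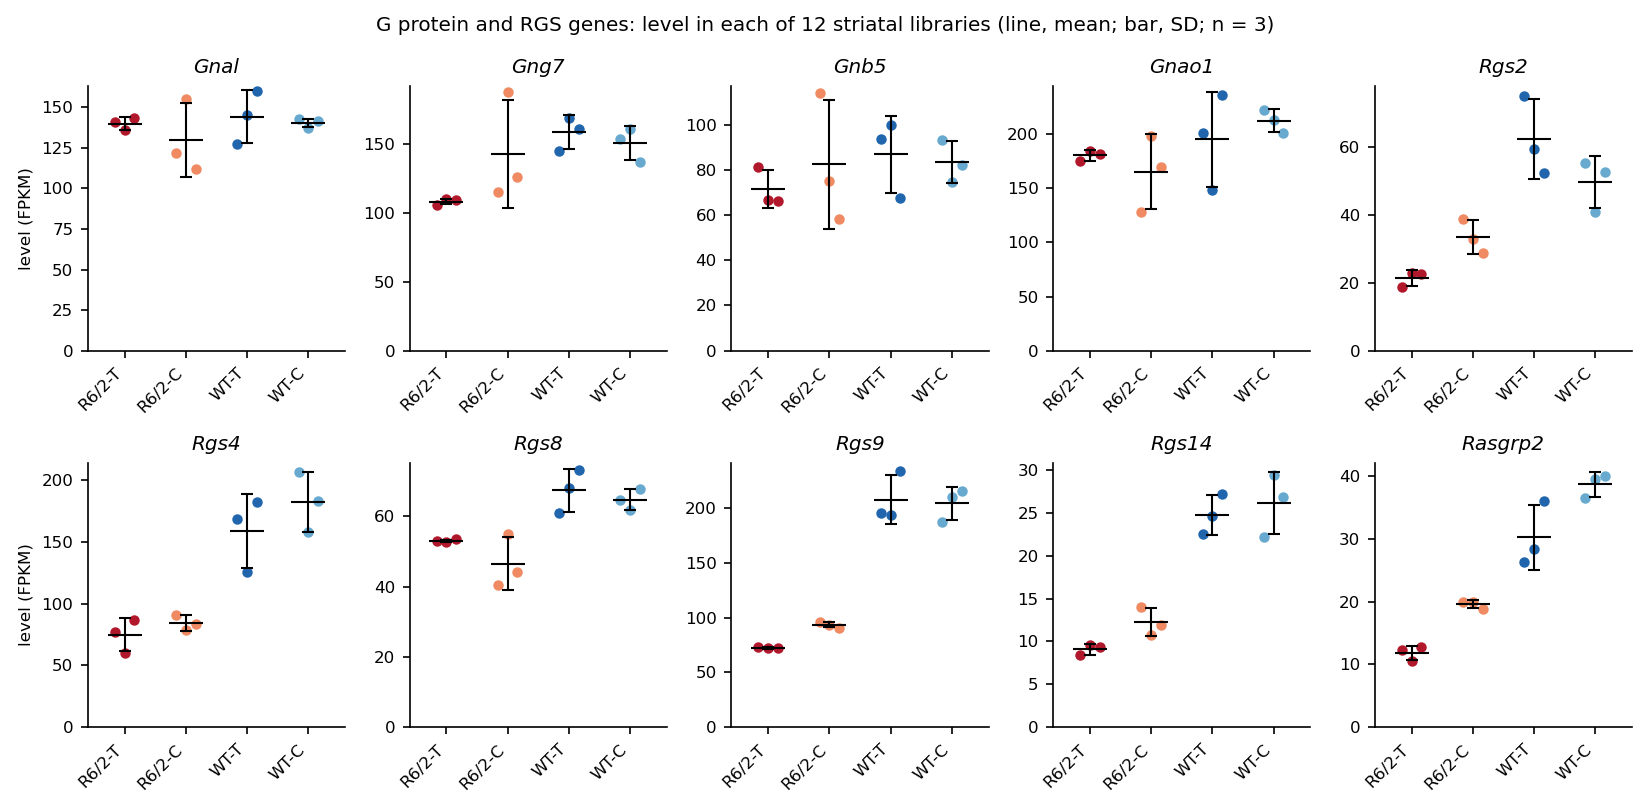
Level in FPKM (vertical axes, linear from 0) of each of the 10 genes in every library, with R6/2-T, R6/2-C, WT-T and WT-C from left to right; each point is a library, the line the mean and the bar the SD of 3 libraries. Rgs9, Rgs4, Rgs14, Rgs2 and Rasgrp2 sit lower in both R6/2 groups than in both WT groups, while the Gnal points of the 4 groups overlap between 112 and 160.

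Among the alpha subunits, Gnal (ENSMUSG00000024524, GRCm38 chromosome 18, 67088336 to 67226792, plus strand) had 141, 136 and 143 FPKM in R6/2-T, 122, 155 and 112 in R6/2-C, 127, 145 and 159.9 in WT-T, and 143, 138 and 141 in WT-C. The ranges of all 4 groups overlapped, and the largest spread was within R6/2-C. The log2 change of Gnal was −0.16 in R6/2-C against WT-C (95% interval −0.49 to 0.17, edgeR adjusted p = 0.549) and −0.05 in R6/2-T against WT-T (−0.38 to 0.27, adjusted p = 0.832). Without R6/2-C 2 the R6/2-C change of Gnal was −0.33 (edgeR adjusted p = 0.163), and without WT-T 1 the R6/2-T change was −0.18 (adjusted p = 0.438). With all libraries, an edgeR difference as large as that of Rgs9 lay outside both intervals of Gnal. Gnao1 (ENSMUSG00000031748, chromosome 8, 93809966 to 93969388, plus strand) encodes the alpha subunit that is abundant in brain and couples to the D2 type of dopamine receptor. It had 175, 185 and 182 FPKM in R6/2-T, 129, 198 and 169.8 in R6/2-C, 201, 149 and 236 in WT-T, and 223, 214 and 202 in WT-C. R6/2-C 1 and WT-T 2 were the low libraries of their groups, and of the groups compared only R6/2-C and WT-C were apart in FPKM. Cuffdiff fragments scaled to a common library size set both R6/2 groups below their WT counterparts. They were 34880 to 36050 in R6/2-T, 30960 to 36160 in R6/2-C, 37090 to 49980 in WT-T and 36500 to 43870 in WT-C. None of the 21 other settings called Gnao1 in either genotype comparison. The log2 change of Gnao1 was −0.40 in R6/2-C (95% interval −0.78 to −0.03, adjusted p = 0.170) and −0.16 in R6/2-T (−0.54 to 0.21, adjusted p = 0.539). Exons of Gnal overlap those of Mppe1 on the opposite strand over 852 bases, 7.63% of the exonic bases of Gnal, and antisense genes overlap 2.57% of those of Gnao1, 7.96% of those of Gnb5, 0.726% of those of Rgs8 and 2.14% of those of Rasgrp2, while the other 5 genes have no such overlap. The sources used here do not say whether counting used the strand.

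Gng7 (ENSMUSG00000048240, chromosome 10, 80948624 to 81014945, minus strand), the gamma partner of Gnal, had 106, 109.7 and 109 FPKM in R6/2-T, 115, 188 and 126 in R6/2-C, 145, 169 and 161 in WT-T, and 154, 161 and 137 in WT-C. All R6/2-T libraries were below all others, and R6/2-C 2 was above every WT library. The direction of Gng7 in R6/2-C depended on the library and the deposited quantity. Its log2 change was 0.03 in R6/2-C against WT-C (SE 0.19, edgeR adjusted p = 0.944) and −0.28 without R6/2-C 2 (adjusted p = 0.140). In R6/2-T against WT-T it was −0.49 (SE 0.19, adjusted p = 0.0810), and −0.49 without R6/2-C 2 (adjusted p = 0.00676). Gng7 was also called lower in R6/2-T by edgeR with only the compared groups in the fit (adjusted p = 0.0152), by edgeR with the choroid plexus sum as a covariate (log2 −0.68, adjusted p = 0.0226) and by limma on log2(FPKM + 0.1) (log2 −0.55, adjusted p = 0.0321). The second deposited quantity, Cuffdiff fragments scaled to a common library size, ordered the Gng7 libraries differently. Scaled fragments of Gng7 were 44370, 42260 and 45400 in R6/2-T, 52760, 46830 and 41240 in R6/2-C, 63230, 76520 and 89510 in WT-T, and 72310, 78790 and 62600 in WT-C. Every R6/2 library was below every WT library in these fragments. By limma on log2(scaled fragments + 1), Gng7 was called lower in R6/2-C (log2 −0.60, adjusted p = 0.0180) and in R6/2-T (log2 −0.78, adjusted p = 0.00185). StringTie gave 0.998 to 2.19 counts per scaled fragment for Gng7, against a median of 4.11 over all genes tested.

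Gnb5 (ENSMUSG00000032192, chromosome 9, 75306288 to 75345876, plus strand), the beta subunit that joins RGS proteins of the R7 family, had 81.3, 66.6 and 66.4 FPKM in R6/2-T, 114, 75.0 and 58.2 in R6/2-C, 93.7, 99.7 and 67.6 in WT-T, and 93.4, 74.6 and 82.3 in WT-C. R6/2-C held both the highest and the lowest library, and its range spanned that of WT-C. The log2 change of Gnb5 was −0.03 in R6/2-C against WT-C (95% interval −0.51 to 0.44, edgeR adjusted p = 0.947) and −0.27 in R6/2-T against WT-T (−0.75 to 0.21, adjusted p = 0.400). In scaled fragments Gnb5 was called lower by limma in R6/2-T (log2 −0.45, adjusted p = 0.0136). Over all 10 genes, limma on the scaled fragments called 6 lower in R6/2-C, against 5.97% of all genes tested, and 7 lower in R6/2-T, against 12.4%.

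Of the RGS genes, Rgs9 (ENSMUSG00000020599, chromosome 11, 109225355 to 109298129, minus strand) had the smallest adjusted p of the 10 in both comparisons. Rgs9 had 73.4, 72.4 and 71.9 FPKM in R6/2-T, 95.8, 93.7 and 90.9 in R6/2-C, 196, 194 and 234 in WT-T, and 187, 211 and 216 in WT-C. Every R6/2 library was below every WT library, and R6/2-T lay wholly below R6/2-C. Rgs9 fell in R6/2-C (log2 −1.20, SE 0.10, edgeR adjusted p = 0.000255) and in R6/2-T (log2 −1.48, SE 0.10, adjusted p = 2.65e-05). It ranked 8 by p among 23453 genes in R6/2-C against WT-C and 7 in R6/2-T against WT-T.

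The R4 family holds small RGS proteins that are little more than the catalytic domain. Rgs4 (ENSMUSG00000038530, chromosome 1, 169741477 to 169747642, minus strand), which acts on alpha subunits of the Gi, Go and Gq classes, had 76.7, 60.3 and 86.8 FPKM in R6/2-T, 90.8, 78.6 and 83.3 in R6/2-C, 169, 125 and 182 in WT-T, and 207, 158 and 183 in WT-C. The highest R6/2 library was below the lowest WT library, and the ranges of the R6/2 groups overlapped. Rgs4 fell in R6/2-C (log2 −1.16, SE 0.18, edgeR adjusted p = 0.00431) and in R6/2-T (log2 −1.12, SE 0.18, adjusted p = 0.00182). Rgs2 (ENSMUSG00000026360, chromosome 1, 143999338 to 144004161, minus strand) encodes a regulator with a preference for Gq and is transcribed rapidly after neuronal stimulation. It had 18.8, 22.9 and 22.4 FPKM in R6/2-T, 38.8, 32.9 and 28.8 in R6/2-C, 75.2, 59.5 and 52.3 in WT-T, and 55.4, 41.0 and 52.7 in WT-C. R6/2-T lay wholly below R6/2-C, which lay wholly below WT-C, and WT-T 1 was the highest library. Rgs2 fell in R6/2-T against WT-T (log2 −1.56, SE 0.16, edgeR adjusted p = 0.000240), and had −1.45 there without WT-T 1 (adjusted p = 0.00048). In R6/2-C against WT-C it fell as well (log2 −0.56, SE 0.16, adjusted p = 0.0467), and that call was lost when any of 8 libraries was left out (R6/2-C 2 and 3, R6/2-T 1 to 3, WT-C 1 and 3, WT-T 2; highest adjusted p = 0.145). Only 8 of the 21 other settings called Rgs2 in R6/2-C. Rgs8 (ENSMUSG00000042671, chromosome 1, 153653025 to 153700323, plus strand), another R4 member that acts on Gi and Go, had 52.9, 52.6 and 53.4 FPKM in R6/2-T, 40.5, 55.0 and 44.2 in R6/2-C, 60.9, 68.0 and 73.3 in WT-T, and 64.8, 61.8 and 67.8 in WT-C. Both R6/2 ranges lay below both WT ranges. Rgs8 fell in R6/2-T (log2 −0.33, SE 0.10, edgeR adjusted p = 0.0433) and was −0.37 in R6/2-C (SE 0.10, adjusted p = 0.0502), where it was called without R6/2-C 2 (log2 −0.45, adjusted p = 0.0314) and without WT-T 1 (adjusted p = 0.0328). The R6/2-T call was lost when any of 8 libraries was left out (R6/2-C 1, R6/2-T 1 to 3, WT-C 1 and 3, WT-T 2 and 3; highest adjusted p = 0.122). Of the 21 other settings, 7 called Rgs8 in R6/2-T and 8 called it in R6/2-C.

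Rgs14 (ENSMUSG00000052087, chromosome 13, 55369732 to 55384687, plus strand), of the R12 family, joins an RGS domain to domains that bind Ras and Rap. Rgs14 had 8.38, 9.58 and 9.39 FPKM in R6/2-T, 14.0, 10.8 and 12.0 in R6/2-C, 22.6, 24.6 and 27.3 in WT-T, and 22.2, 29.5 and 26.8 in WT-C. The 3 R6/2-T libraries were the lowest, and every R6/2 library was below every WT library. Rgs14 fell in R6/2-C (log2 −1.17, SE 0.16, edgeR adjusted p = 0.00270) and in R6/2-T (log2 −1.46, SE 0.16, adjusted p = 0.000335). Rgs4, Rgs9 and Rgs14 were called in both comparisons under each of the 21 other settings tried, 12 of which leave out a library.

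Rasgrp2 (ENSMUSG00000032946, chromosome 19, 6399340 to 6415216, plus strand), the Rap exchange factor, had 12.3, 10.5 and 12.7 FPKM in R6/2-T, 19.98, 19.99 and 18.9 in R6/2-C, 26.3, 28.4 and 36.1 in WT-T, and 36.5, 39.6 and 40.07 in WT-C. The 4 groups did not overlap and stood in that order. Rasgrp2 fell in R6/2-C (log2 −1.37, SE 0.20, edgeR adjusted p = 0.00302) and in R6/2-T (log2 −1.98, SE 0.20, adjusted p = 0.000216). The fall was smaller in FPKM by limma on log2(FPKM + 0.1). It was −0.98 in R6/2-C (adjusted p = 0.00146) and −1.34 in R6/2-T (adjusted p = 9.5e-05). The Cuffdiff column held almost no fragments for this gene, 0.894 to 9.48 scaled fragments per library against 1798 to 16311 StringTie counts. Its neighbours, chosen after their values were seen, were near 0 there as well: Sf1 had 0 to 6.45 scaled fragments against 7333 to 12882 StringTie counts, and Nrxn2 0 to 30.3 against 14050 to 31128. In these few fragments Rasgrp2 was not called by limma in R6/2-C (log2 −0.83, adjusted p = 0.350) or in R6/2-T (log2 0.39, adjusted p = 0.648), so its fall rests on the StringTie counts and the FPKM. Why the region is empty in that column was not tested.

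**Figure D2:**
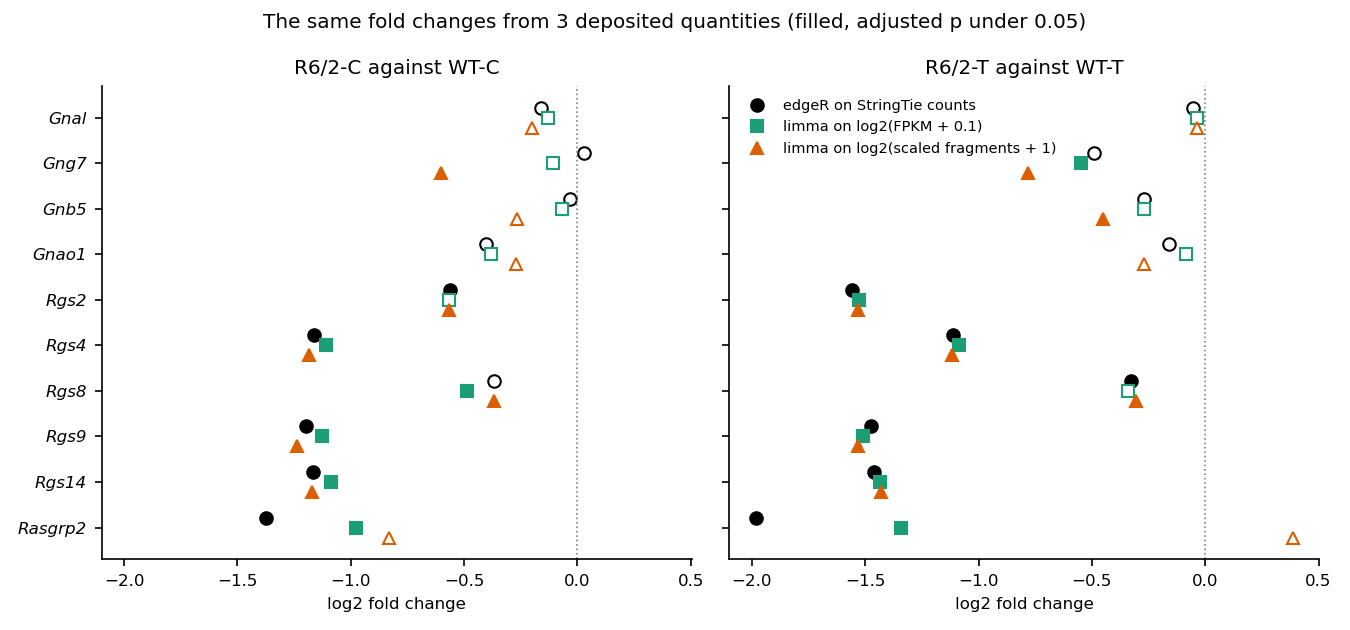
Log2 fold change of each of the 10 genes (horizontal axis) in the genotype comparisons, from StringTie counts by edgeR, from FPKM by limma and from Cuffdiff scaled fragments by limma; filled points have an adjusted p under 0.05. The 3 quantities lie close together for Rgs9, Rgs4 and Rgs14, while the fragments set Gng7 lower (−0.60 in R6/2-C) and Rasgrp2 higher (0.39 in R6/2-T) than the other quantities.

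The promoters of Rgs9, Rgs4, Rgs2 and Rasgrp2 are shown as the start regions of called genes from the R7 and R4 families and of the Rap exchange factor. RefSeq (GRCm38.p6) gave a window of 250 bases before to 50 after the start site for 8 of the 10 genes, and none was matched for Gnal and Rgs14. Each line runs 5′ to 3′ in the direction of the gene, and capitals mark matches to the motifs searched. The Rgs9 window is chr11:109298132-109298431 on the minus strand, that of Rgs4 is chr1:169747593-169747892 on the minus strand, that of Rgs2 is chr1:144004100-144004399 on the minus strand, and that of Rasgrp2 is chr19:6399625-6399924 on the plus strand.
Rgs9: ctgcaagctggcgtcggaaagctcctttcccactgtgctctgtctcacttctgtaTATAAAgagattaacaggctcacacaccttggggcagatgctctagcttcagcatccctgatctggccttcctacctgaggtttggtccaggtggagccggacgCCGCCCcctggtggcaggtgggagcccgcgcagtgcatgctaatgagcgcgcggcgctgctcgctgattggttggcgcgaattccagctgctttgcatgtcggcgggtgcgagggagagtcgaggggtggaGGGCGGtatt
Rgs4: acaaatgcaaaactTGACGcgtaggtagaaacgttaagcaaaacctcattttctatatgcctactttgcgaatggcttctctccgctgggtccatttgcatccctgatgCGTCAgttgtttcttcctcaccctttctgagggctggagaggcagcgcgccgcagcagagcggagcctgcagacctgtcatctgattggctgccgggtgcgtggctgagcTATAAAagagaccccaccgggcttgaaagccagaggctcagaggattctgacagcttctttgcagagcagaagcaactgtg
Rgs2: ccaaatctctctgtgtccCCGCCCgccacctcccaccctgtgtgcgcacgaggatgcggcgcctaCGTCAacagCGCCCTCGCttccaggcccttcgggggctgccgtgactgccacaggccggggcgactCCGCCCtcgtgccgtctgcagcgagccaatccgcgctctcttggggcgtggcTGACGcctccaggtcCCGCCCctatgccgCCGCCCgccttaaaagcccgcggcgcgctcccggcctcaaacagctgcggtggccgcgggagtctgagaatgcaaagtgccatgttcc
Rasgrp2: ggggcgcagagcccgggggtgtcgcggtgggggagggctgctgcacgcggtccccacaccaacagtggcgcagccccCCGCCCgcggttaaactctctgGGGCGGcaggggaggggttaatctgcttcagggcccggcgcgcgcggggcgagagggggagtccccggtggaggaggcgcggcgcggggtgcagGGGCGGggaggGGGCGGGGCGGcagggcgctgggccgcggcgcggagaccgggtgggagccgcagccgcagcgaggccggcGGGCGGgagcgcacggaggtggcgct

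The motifs were searched on both strands: the cAMP response element TGACGTCA and its core TGACG, the AP-1 site TGANTCA, the EGR site GCGNGGGCG, the GC box GGGCGG, the E-box CACGTG and the TATA box TATAAA. The core lies within the full cAMP element, and the GC box can share bases with the EGR site. Rgs4 held a TATA box 31 bases before its start site and 2 core sites, at −236 and −141. Rgs2 held 2 core sites, 1 EGR site at −176 and 4 GC boxes. Rgs9 held 2 GC boxes, at −91 and 41, and a TATA box at −195, and Rasgrp2 held 6 GC boxes. Among 32851 promoter windows of the same length, 20.8% held the core, 5.55% the EGR site, 35.7% the GC box and 13.6% the TATA box. None of the 8 windows held the full cAMP element (1.79% of all windows), the AP-1 site (7.81%) or the E-box (7.15%), which says only that these letters are not in these windows. The GC content was 60.3% for Rgs9, 53.0% for Rgs4, 70.0% for Rgs2 and 80.0% for Rasgrp2, against a median of 52.7% over all windows. The start site of Rasgrp2 in RefSeq lies 535 bases from the gene start in the deposited table, and that of Rgs9 lies 52 bases from it.

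The comparisons of R6/2-T with R6/2-C and of WT-T with WT-C ask what the TRAX shRNA changed within each genotype. The edgeR test called none of the 10 genes in R6/2-T against R6/2-C, where 0.0682% of all genes were called, although 5 of the 10 had an unadjusted p under 0.05 (19.2% of all genes). It called none of the 10 without R6/2-C 2, where 1197 of 24273 genes were called, or without WT-T 1, where 318 of 24021 were. DESeq2, which called 7.42% of all genes here, called 2 of the 10, Rgs2 (adjusted p = 0.0115) and Rasgrp2 (adjusted p = 0.0113). limma on log2(FPKM + 0.1), which called 0.213% of all genes, called Rasgrp2 alone (adjusted p = 0.0479). With the scaled fragments, limma called 482 of 23453 genes and none of the 10. FPKM of 5 genes lay wholly below R6/2-C in R6/2-T (15.4% of all genes): Gng7, Rgs2, Rgs9, Rgs14 and Rasgrp2. The summed medium spiny neuron markers (1153 to 1175 FPKM in R6/2-T, 1485 to 1701 in R6/2-C) and astrocyte markers (359.5 to 401 in R6/2-T, 406 to 574 in R6/2-C) lay wholly below R6/2-C as well. Of these markers edgeR called 1 lower, Pdyn, which encodes the opioid precursor prodynorphin (log2 −0.80, adjusted p = 0.0292), and the part of either cell type in the lower values of the 5 genes was not tested. Rasgrp2 averaged 11.8 ± 1.17 FPKM in R6/2-T and 19.6 ± 0.647 FPKM in R6/2-C (SD, n = 3 each), with an edgeR log2 change of −0.77 (95% interval −1.20 to −0.35, adjusted p = 0.0927). Rgs2 averaged 21.4 ± 2.26 FPKM in R6/2-T and 33.5 ± 5.04 FPKM in R6/2-C (SD, n = 3 each), with a log2 change of −0.62 (−0.96 to −0.28, adjusted p = 0.0927). Rgs9, the regulator bound to Gnb5, averaged 72.6 ± 0.789 FPKM in R6/2-T and 93.5 ± 2.45 FPKM in R6/2-C, with a log2 change of −0.27 (−0.49 to −0.06, adjusted p = 0.176). Rgs14 had −0.37 (adjusted p = 0.242), and −0.17 with the choroid plexus sum as a covariate (adjusted p = 0.577). Gng7 had −0.46 (adjusted p = 0.215), and −0.15 without R6/2-C 2 (adjusted p = 0.476). The 5 others, Gnal, Gnao1, Gnb5, Rgs4 and Rgs8, had log2 changes from −0.15 to 0.18. Without R6/2-C 2, Gnal had 0.34 (adjusted p = 0.182), Gnao1 0.31 (adjusted p = 0.330) and Rgs8 0.16 (adjusted p = 0.436). The authors' deposited table of 626 genes, titled as neuron-enriched and differentially expressed, lists 1 of the 10, Rasgrp2. Its mean FPKM there is 11.8 in R6/2-T and 19.6 in R6/2-C, with a ratio of 0.602 and a q-value of 0.0005. Rasgrp2 is marked there as not significant, but so are Kcnj3 (q-value 0.003) and Adcy9 (q-value 0.0041). That mark therefore does not set genes of low q-value apart.

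In WT-T against WT-C, edgeR called none of the 10 genes (0.00426% of all genes called), and 1 had an unadjusted p under 0.05 (6.45% of all genes). DESeq2 (0.495% of all genes called) and limma (at most 4 of 23453 genes called) called none of the 10 in this comparison either. The gene with an unadjusted p under 0.05 was Rgs2, with 62.3 ± 11.7 FPKM in WT-T and 49.7 ± 7.66 FPKM in WT-C (SD, n = 3 each; log2 0.38, SE 0.16, edgeR adjusted p = 0.745). Rgs9 averaged 208 ± 22.5 FPKM in WT-T and 205 ± 15.2 FPKM in WT-C, a log2 change of 0.01 (95% interval −0.21 to 0.22, adjusted p = 1.0). Rasgrp2 averaged 30.2 ± 5.17 FPKM in WT-T and 38.7 ± 1.96 FPKM in WT-C (log2 −0.17, adjusted p = 0.964), and was the 1 gene whose FPKM in WT-T lay wholly below WT-C (6.6% of all genes). Without WT-T 1 the change of Rasgrp2 was −0.07 (edgeR adjusted p = 0.931) and that of Rgs2 was 0.27 (adjusted p = 0.517).

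The interaction subtracts the WT effect of the shRNA from the R6/2 effect and tests whether those changes differed between genotypes. edgeR called none of the 10 (0.00426% of all genes called), and 2 had an unadjusted p under 0.05 (11.7% of all genes), Rgs2 and Rasgrp2. The interaction of Rgs2 was −0.996 (SE 0.22, adjusted p = 0.346), which ranked 52 among all genes, and DESeq2, at 0.81% of all genes called, called it (log2 −0.98, adjusted p = 0.0159). For the interaction limma called at most 1 of 23453 genes and none of the 10. The edgeR interaction of Rgs2 was −0.89 without WT-T 1 (adjusted p = 0.282) and −0.99 without R6/2-C 2 (adjusted p = 0.0993). Rgs2 was lower with the shRNA in all 3 R6/2-T libraries than in any R6/2-C library, while its WT-T and WT-C ranges overlapped in FPKM. In scaled fragments the 3 WT-T libraries of Rgs2 had 8712 to 11240 and the 3 WT-C libraries 6050 to 8378, without overlap. The interaction of Rasgrp2 was −0.61 (SE 0.27, adjusted p = 0.421) and that of Rgs9 −0.28 (adjusted p = 0.459). For the shRNA change averaged over both genotypes, 0.217% of all genes were called and none of the 10, with 1 at an unadjusted p under 0.05 (14.4% of all genes), Rasgrp2 (log2 −0.47, SE 0.14, adjusted p = 0.182). DESeq2, which called 788 of 23453 genes there, called none of the 10, and limma on log2(FPKM + 0.1), at 0.341% of all genes called, called Rasgrp2 (adjusted p = 0.0316). Choroid plexus markers were high in all R6/2-T libraries, in R6/2-C 2 and in WT-T 1. With their log2 sum as a covariate, edgeR called none of the 10 genes in either shRNA comparison, in the interaction or for the average. Of 23453 genes, that fit called only 2 in R6/2-T against R6/2-C, 5 in WT-T against WT-C, 2 in the interaction and 11 for the average. In R6/2-T against R6/2-C that fit gave −0.65 for Rasgrp2 (adjusted p = 0.179), −0.73 for Rgs2 (adjusted p = 0.145) and −0.63 for Gng7 (adjusted p = 0.160).

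**Figure D3:**
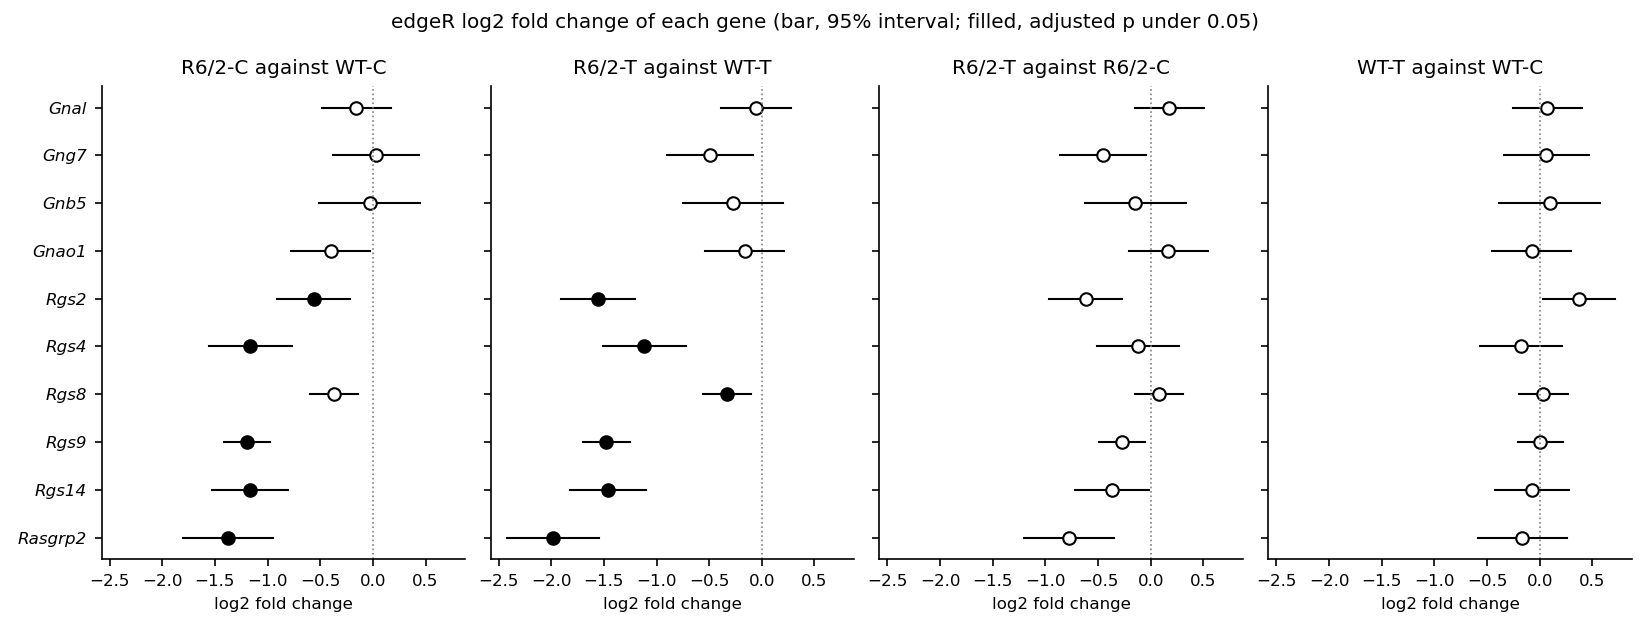
edgeR log2 fold change (horizontal axis) of each of the 10 genes in each comparison, with its 95% interval; filled points have an adjusted p under 0.05. The genotype comparisons hold 5 and 6 filled points, all below 0, and the shRNA comparisons hold none.

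Because FPKM is per length, the genes can be set beside each other within a library. In R6/2-T the means ran from Gnao1 (181 ± 5.04 FPKM) through Gnal (140.1 ± 3.86), Gng7 (108 ± 2.05), Rgs4 (74.6 ± 13.4), Rgs9 (72.6 ± 0.789), Gnb5 (71.4 ± 8.53), Rgs8 (53.0 ± 0.404), Rgs2 (21.4 ± 2.26) and Rasgrp2 (11.8 ± 1.17) to Rgs14 (9.12 ± 0.645). In WT-C the order was Gnao1 (213 ± 10.5 FPKM), Rgs9 (205 ± 15.2), Rgs4 (183 ± 24.3), Gng7 (150.5 ± 12.4), Gnal (140.5 ± 2.61), Gnb5 (83.4 ± 9.44), Rgs8 (64.8 ± 2.99), Rgs2 (49.7 ± 7.66), Rasgrp2 (38.7 ± 1.96) and Rgs14 (26.2 ± 3.66), each with the SD of 3 libraries. Neighbours overlapped in library range among Rgs4, Rgs9 and Gnb5 in R6/2-T, and among Gnao1, Rgs9, Rgs4, Gng7 and Gnal in WT-C. Rgs9 stood below Gnal and Gng7 in every R6/2 library and above both in every WT library.

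The ratio of Rgs9 to Gnal in FPKM, a regulator over an alpha subunit, was chosen after its values were seen. It was 0.520, 0.533 and 0.502 in R6/2-T, 0.787, 0.603 and 0.811 in R6/2-C, 1.54, 1.34 and 1.46 in WT-T, and 1.31, 1.53 and 1.53 in WT-C. R6/2-T lay below R6/2-C, and both lay below both WT groups, whose ranges overlapped. The ratio of Gng7 to Gnal averaged 0.773 in R6/2-T, 1.09 in R6/2-C, 1.10 in WT-T and 1.07 in WT-C. Within the R7 family, Rgs9 made up 73.3%, 72.6% and 71.2% of the summed FPKM in R6/2-T, 77.0%, 74.4% and 76.8% in R6/2-C, 87.3%, 86.8% and 87.3% in WT-T, and 85.0%, 85.4% and 85.5% in WT-C. The groups did not overlap in this share in any of the 4 comparisons, each at p = 0.1 in a two-sided exact permutation test, the smallest p that 3 against 3 libraries allow. Within the R4 family, Rgs2 made up 10.2%, 13.1% and 11.2% of the summed FPKM in R6/2-T, 18.9%, 15.98% and 14.7% in R6/2-C, 21.5%, 20.8% and 15.2% in WT-T, and 14.8%, 13.8% and 15.2% in WT-C. R6/2-T was below both R6/2-C and WT-T without overlap (exact permutation p = 0.1 each), while R6/2-C overlapped WT-C (exact permutation p = 0.3). WT-T was above WT-C in this share without overlap, at a mean of 19.2% in WT-T and 14.6% in WT-C (exact permutation p = 0.1), although the lowest WT-T library (15.24%) was close to the highest WT-C library (15.17%). Rgs8 averaged 28.4% of the R4 family in R6/2-T, 23.0% in R6/2-C, 20.8% in WT-T and 19.2% in WT-C, and Rgs4 averaged 39.8% in R6/2-T, 41.6% in R6/2-C, 48.4% in WT-T and 53.6% in WT-C. Rgs14 averaged 23.5% of the R12 family in R6/2-T, 21.7% in R6/2-C, 31.8% in WT-T and 30.7% in WT-C. Of the alpha subunits encoded by Gnal and Gnas, Gnal made up a mean of 50.9% in R6/2-T, 49.4% in R6/2-C, 49.6% in WT-T and 53.8% in WT-C, with overlapping ranges.

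**Figure D4:**
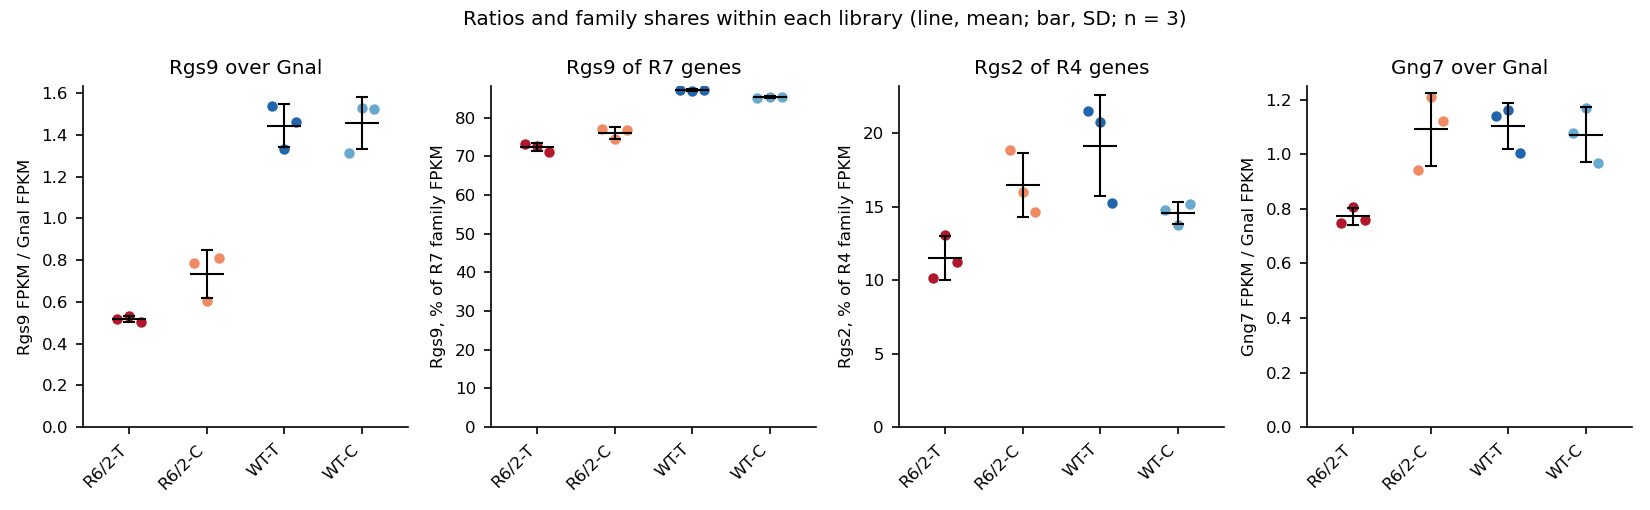
Ratio of Rgs9 to Gnal in FPKM and family shares in percent (vertical axes) in each library, with R6/2-T, R6/2-C, WT-T and WT-C from left to right; points are libraries, lines means and bars SD of 3 libraries. The Rgs9 to Gnal ratio stays at or below 0.811 in R6/2 libraries and at or above 1.31 in WT libraries.

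Around the 10 genes, 11 lists of G protein subunits, RGS families, partners, Rap regulators, receptors and effectors held 112 further genes, of which 106 were tested. In R6/2-C against WT-C, edgeR called 6 of the 106 higher and 19 lower, against 4.87% higher and 4.22% lower over all genes tested. In R6/2-T against WT-T it called 6 higher and 28 lower, against 11.5% and 11.1% over all genes tested. Of 16 receptor genes, 8 were called lower and 1 higher in R6/2-C (4.22% lower and 4.87% higher over all genes), and 10 lower and 1 higher in R6/2-T (11.1% and 11.5% over all genes). Cnr1, the cannabinoid receptor, had 20.2 to 22.8 FPKM in R6/2-T, 20.7 to 23.9 in R6/2-C, 38.1 to 53.4 in WT-T and 47.0 to 54.4 in WT-C, and fell in both comparisons (log2 −1.07 in R6/2-T and −1.23 in R6/2-C). The dopamine receptor genes Drd1 (log2 −0.98 in R6/2-T and −0.74 in R6/2-C) and Drd2 (−1.35 and −0.79) and the adenosine receptor gene Adora2a (−1.71 and −0.90), all of which count among the medium spiny neuron markers, fell in both. Gpr149, an orphan receptor gene, rose in both (log2 0.87 in R6/2-T and 1.04 in R6/2-C). Among 17 effectors, 4 were called lower and none higher in each comparison, where the shares called lower over all genes were 4.22% in R6/2-C and 11.1% in R6/2-T. Adcy5, the cyclase that Gnal stimulates, averaged 78.7 FPKM in R6/2-T, 87.9 in R6/2-C, 247 in WT-T and 202 in WT-C, and fell in R6/2-T (log2 −1.69, adjusted p = 0.000250) and in R6/2-C (log2 −1.25, adjusted p = 0.00268). Ppp1r1b, a phosphatase inhibitor switched on by cyclic AMP signalling, fell by 1.92 on the log2 scale in R6/2-T and by 1.18 in R6/2-C.

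Of the 13 other alpha subunit genes, none was called lower and 1 higher in R6/2-C, Gnai1 (log2 0.44, adjusted p = 0.0458), while 4 were called lower and 2 higher in R6/2-T (11.1% lower and 11.5% higher over all genes). Gnas, which encodes the widely expressed relative of the Gnal product, had 129, 138 and 138 FPKM in R6/2-T, 135, 120.2 and 140.5 in R6/2-C, 155, 154 and 129 in WT-T, and 130.3, 114 and 119 in WT-C. Its ranges overlapped between the R6/2 groups and their WT counterparts, with a log2 change of −0.26 in R6/2-T (adjusted p = 0.0440) and 0.03 in R6/2-C (adjusted p = 0.877). Gng3, a neuronal gamma subunit gene, had 61.4, 72.3 and 69.1 FPKM in R6/2-T, 93.7, 74.5 and 77.1 in R6/2-C, 43.0, 48.3 and 50.5 in WT-T, and 37.7, 37.0 and 36.0 in WT-C. Every R6/2 library of Gng3 was above every WT library, and it rose in R6/2-T (log2 0.49, adjusted p = 0.0172) and in R6/2-C (log2 1.10, adjusted p = 0.00119). Gng4, also a gamma subunit gene, rose in R6/2-C (log2 0.91, adjusted p = 0.0270). Of the 10 other gamma subunit genes tested, 2 were called higher and none lower in R6/2-C (4.87% and 4.22% over all genes). In R6/2-T, 1 of those 10 was called higher and 2 lower (11.5% and 11.1% over all genes). edgeR called none of the 4 other beta subunit genes in either comparison, with 1 at an unadjusted p under 0.05 in each (25.3% of all genes in R6/2-C and 36.0% in R6/2-T). DESeq2 called 1 of these 4 in each comparison, and limma on log2(FPKM + 0.1), which called 9.78% of all genes in R6/2-C and 20.3% in R6/2-T, called 0 in R6/2-C and 2 in R6/2-T.

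Over all genes tested, edgeR called 4.22% lower and 4.87% higher in R6/2-C, and 11.1% lower and 11.5% higher in R6/2-T. In the R7 family, 1 of the 3 other genes was called in each comparison, as lower. This was Rgs11, which had 1.25, 1.77 and 1.74 FPKM in R6/2-T, 1.93, 2.15 and 1.45 in R6/2-C, 3.96, 4.56 and 5.73 in WT-T, and 4.74, 7.16 and 5.39 in WT-C. All R6/2 libraries of Rgs11 were below all WT libraries, and it fell in R6/2-T (log2 −1.71, adjusted p = 0.000986) and in R6/2-C (log2 −1.69, adjusted p = 0.00313). Rgs7, the R7 gene with a broad neuronal expression, averaged 19.8 ± 1.14 FPKM in R6/2-T, 21.6 ± 1.71 in R6/2-C, 18.8 ± 1.23 in WT-T and 20.8 ± 2.61 in WT-C (SD, n = 3 each), with log2 changes of 0.05 in R6/2-T (adjusted p = 0.765) and 0.01 in R6/2-C (adjusted p = 0.983). Rgs7bp, which anchors R7 complexes to membranes, had log2 changes of −0.32 in R6/2-T (adjusted p = 0.217) and −0.52 in R6/2-C (adjusted p = 0.0920). Ric8b, the chaperone of the Gnal product, had 0.05 in R6/2-T (adjusted p = 0.770) and −0.09 in R6/2-C (adjusted p = 0.625). Among the 6 other R4 genes, none was called lower and 1 higher in each comparison, Rgs13 (log2 1.75 in R6/2-C), at a mean of 0.333 FPKM in R6/2-T, 0.469 in R6/2-C, 0.142 in WT-T and 0.134 in WT-C. Of the 2 other R12 genes, Rgs10 fell in R6/2-T (log2 −1.02, adjusted p = 0.00743) and had −0.50 in R6/2-C (adjusted p = 0.172). Rgs10 is known from microglia, whose 6 markers summed to 125 to 153 FPKM in R6/2-T, 145 to 275 in R6/2-C, 152 to 350 in WT-T and 201 to 316 in WT-C, and their part in the change of Rgs10 was not tested.

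Of 17 other genes that act on Rap or belong to the RasGRP family, 4 were called lower and none higher in each comparison, at 4.22% of all genes called lower in R6/2-C and 11.1% in R6/2-T. Rap1gap, which ends Rap signals by promoting GTP hydrolysis, averaged 145 FPKM in R6/2-T, 157.5 in R6/2-C, 247 in WT-T and 227 in WT-C, and fell in R6/2-T (log2 −0.84, adjusted p = 0.00290) and in R6/2-C (log2 −0.56, adjusted p = 0.0393). Sipa1, another gene for a Rap GTPase-activating protein, fell in both (log2 −1.03 in R6/2-T and −0.75 in R6/2-C). Rasgrp3, a relative of Rasgrp2, fell in R6/2-C (log2 −0.45, adjusted p = 0.0465) and had −0.37 in R6/2-T (adjusted p = 0.0519). In R6/2-T against R6/2-C edgeR called none of the 106 pathway genes, with 23 at an unadjusted p under 0.05 (19.2% of all genes), and DESeq2 called 7 (7.42% of all genes). In WT-T against WT-C edgeR called none, with 9 at an unadjusted p under 0.05 (6.45% of all genes), and DESeq2, at 0.495% of all genes, called 1, the gamma subunit gene Gng4, named after its value was seen. For the interaction neither edgeR nor DESeq2 called any, with 15 at an unadjusted edgeR p under 0.05 (11.7% of all genes).

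**Figure D5:**
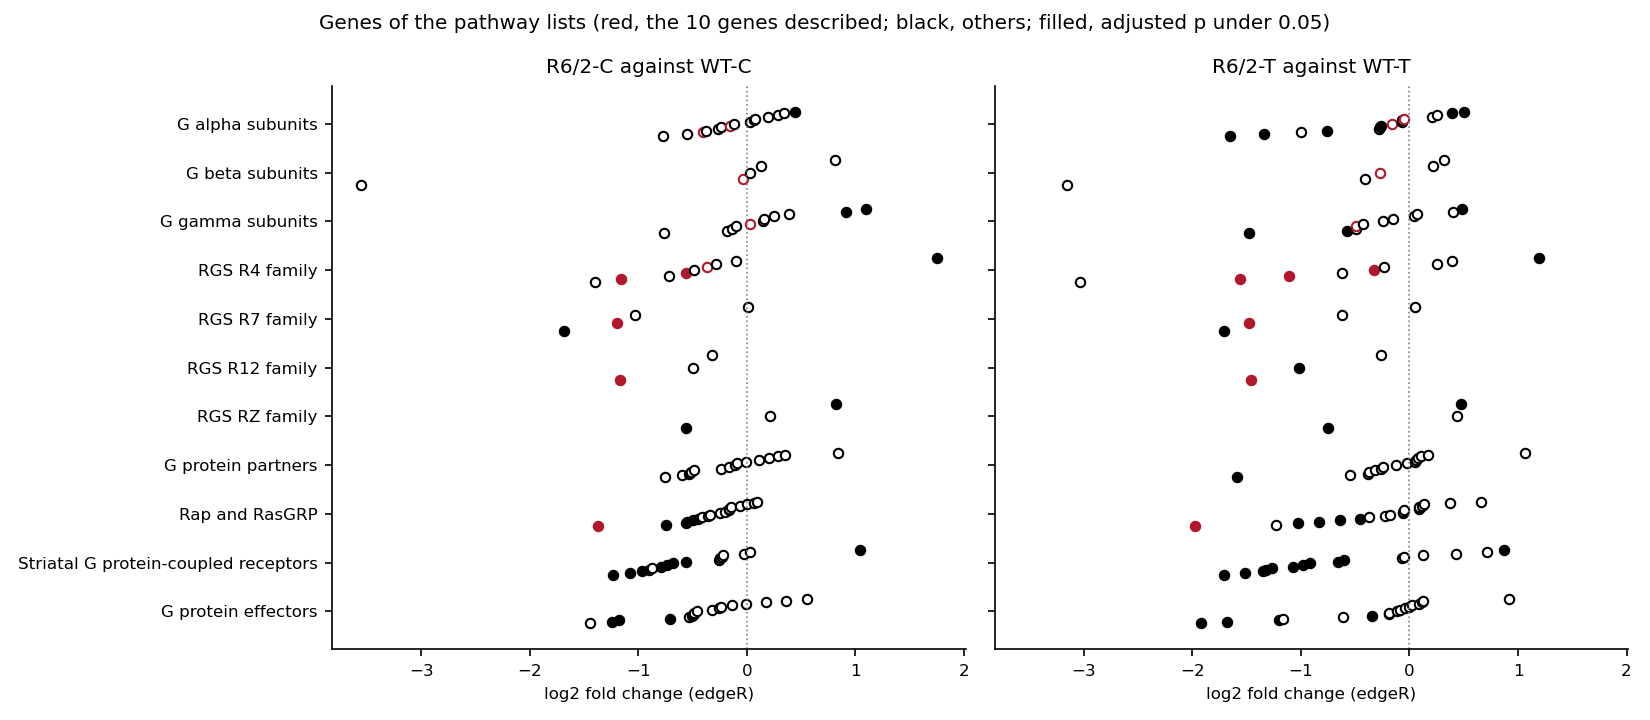
edgeR log2 fold change (horizontal axis) of every tested gene of the 11 pathway lists in the genotype comparisons; red points are the 10 genes described, black points the other 106, and filled points have an adjusted p under 0.05. Receptors, effectors and Rap regulators hold filled points mostly below 0, and the beta subunits hold none.

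Likeness over the 12 libraries was measured as the root mean square difference of centred log2(FPKM + 0.1) among 15817 candidate genes. Nearest to Rgs9 were Rasd2 (0.11), Rgs14 (0.11) and Syndig1l (0.11), so a member of another RGS family ranked 2 among all candidates. Syndig1l averaged 51.8 FPKM in R6/2-T, 75.8 in R6/2-C, 158 in WT-T and 153 in WT-C. Nearest to Rgs4 were Ackr1 (0.16), Cnr1 (0.17) and the gene model Gm12992 (0.19). Among the 3 nearest to Gnal were Dapk1 (0.06) and Erc2 (0.09), whose group means, like those of Gnal, differed little.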

How the data were processed

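Striatal RNA of 12 libraries in 4 groups of 3 was compared, and the 10 genes and the gene and marker lists were chosen with earlier results of these data known. Per the labels' protocols the libraries were TruSeq Stranded Total RNA Gold, and the submitters' processing notes list GRCm38, bcl2fastq 2.20 and HISAT2. The authors deposited StringTie's estimated counts for each gene, per the file headers, and a signal headed Cuffdiff, which is fragments scaled to a common library size. They also deposited FPKM, and for R6/2-T against R6/2-C a ratio, a log2 ratio and p-values and q-values for 626 genes, per the file headers, with no test named. The 12 columns headed Pearson were not used.

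The test of the estimated counts was that of edgeR 4.0.16 under R 4.3.3 (quasi-likelihood F test, robust, TMM scaling, default expression filter), with all libraries in 1 model of 4 group means. The test had been planned for read counts and was kept for these whole-number estimates. Comparisons, 6 in all, were two-sided, with Benjamini-Hochberg adjustment over 23453 genes and a threshold of 0.05. A log2 change is the first group over the second, SE is derived from the F statistic, and 95% intervals use its t distribution. limma 3.58.1 on log2(FPKM + 0.1), log2(FPKM + 1) and log2(scaled fragments + 1), and DESeq2 1.42.0, were the alternatives, with a library left out in turn. Fold changes on those limma scales understate changes of low genes. Family shares and ratios were computed per library in FPKM and compared by exact permutation. Exon overlaps come from GENCODE vM21. The text names the 10 genes, their direct partners, up to 4 called genes of each pathway list by smallest p (a selection of these is described) and the 3 genes most like Gnal, Rgs9 and Rgs4. Of these, 1 is not reported here. The count test was checked on simulated data before use. StringTie totals per library exceed fragment numbers, so they are no direct measure of depth.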

Additional observations from a re-analysis of the deposited data

How the results depend on the processing

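Rgs4, Rgs9 and Rgs14 stayed called and lower in both genotype comparisons under all 21 other settings, and Rasgrp2 under 20 of them. The number of the 10 genes called ranged from 4 to 6 in R6/2-C against WT-C and from 5 to 7 in R6/2-T against WT-T. Of 1240 log2 changes of the 10 genes under other settings, 1143 kept their direction and their side of the threshold, 28 lost a call, 23 gained a call and 46 changed sign. Signs changed in 23 of 60 gene and comparison pairs, and where such a pair was called under the reported setting it was Rasgrp2 in R6/2-T against WT-T. The cause of each difference was not tested. The labels' replicate numbers did not pair the libraries (18 correlations of deviations between −0.462 and 0.288). With the replicate block, 1199 genes were called in R6/2-C against WT-C, 4 in R6/2-T against R6/2-C, 3 for the average shRNA change and 0 for the interaction, against 2131, 16, 51 and 1 without it. With the block Gng7 had a log2 change of −0.0037 in R6/2-C and Gnb5 an average shRNA change of 0.000996.

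With DESeq2, 3484 genes were called in R6/2-C against WT-C, 1741 in R6/2-T against R6/2-C, 116 in WT-T against WT-C, 788 for the average and 190 for the interaction, and 2 and 1 of the 10 genes were called in R6/2-T against R6/2-C and in the interaction. The planned count test on whole Cuffdiff fragments was not run, since the scaled values did not give whole fragments for nearly all genes. In its place, chosen after seeing the data, limma on the scaled fragments called 482 genes in R6/2-T against R6/2-C, 4 in WT-T against WT-C, 121 for the average and 0 for the interaction. There Gng7 had −0.60 in R6/2-C and 0.0034 for the average, Rasgrp2 0.39 in R6/2-T against WT-T and 1.22 for the interaction, and in WT-T Gnao1 0.057 and Gnb5 −0.081. With the choroid plexus sum as a covariate, also chosen after seeing the data, 2 genes were called in R6/2-T against R6/2-C, 5 in WT-T against WT-C, 11 for the average and 2 for the interaction, and Gng7 had −0.068 in R6/2-C and −0.020 in WT-T, and Rgs14 0.0027 in WT-T. With limma on FPKM, 50 (pseudocount 0.1) and 52 (pseudocount 1) genes were called in R6/2-T against R6/2-C and 4 and 3 in WT-T against WT-C, with 80 for the average at 0.1. Gng7 then had −0.11 and −0.10 in R6/2-C, and 1 of the 10 genes was called in R6/2-T against R6/2-C and for the average at each pseudocount. With no filter, 2 genes were called in WT-T against WT-C and 2 in the interaction. With only the compared groups in the fit, 454 genes were called in R6/2-C against WT-C and 7 in R6/2-T against R6/2-C.

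With 1 library left out, the genes called ranged from 803 to 2733 in R6/2-C against WT-C, 2760 to 5473 in R6/2-T against WT-T, 2 to 1197 in R6/2-T against R6/2-C, 1 to 11 in WT-T against WT-C, 0 to 29 for the interaction and 2 to 527 for the average. The counts of 1197 and 318 in R6/2-T against R6/2-C came without R6/2-C 2 and without WT-T 1, and those of 527 and 412 for the average without WT-T 1 and without R6/2-C 2. Log2 changes whose sign turned without some library ranged as follows. In R6/2-C against WT-C they were Gnb5 −0.27 to 0.17 and Gng7 −0.28 to 0.19. In R6/2-T against WT-T they were Gnal −0.18 to 0.069 and Gnao1 −0.31 to 0.022. In R6/2-T against R6/2-C they were Rgs8 −0.0073 to 0.16, Gnb5 −0.35 to 0.092 and Rgs4 −0.26 to 0.013. In WT-T against WT-C they were Rgs9 −0.089 to 0.066, Rgs8 −0.045 to 0.10, Gnal −0.059 to 0.19, Gnb5 −0.036 to 0.28, Rasgrp2 −0.40 to 0.0034, Gng7 −0.0098 to 0.12, Rgs14 −0.23 to 0.078 and Gnao1 −0.26 to 0.074. For the interaction they were Rgs8 −0.043 to 0.12, Gnal −0.018 to 0.27 and Rgs4 −0.10 to 0.21. For the average they were Gnb5 −0.13 to 0.093 and Gnao1 −0.050 to 0.12.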
